A study of Mus musculus with 17 samples.

Results

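The 78 nuclear genes of the mouse mitochondrial ribosomal proteins were measured in 2 cortical areas, orbitofrontal (OFC) and medial prefrontal (mPFC), of mice trained to stimulate their own dopamine neurons. Members were all gene symbols of the count tables that begin with Mrpl or Mrps followed by a number, with pseudogenes left out, which gave 78 of 25239 genes. By known structure 51 of them build the large subunit and 26 the small subunit. Mrps36 bears the name of the family but is known as a component of the alpha-ketoglutarate dehydrogenase complex, and it was kept as a member outside the ribosome.

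The mitochondrial ribosome sits in the mitochondrial matrix and translates the few messenger RNAs that mitochondrial DNA encodes, all of them for membrane subunits of the respiratory chain and the ATP synthase. Its ribosomal RNAs come from mitochondrial DNA, whereas each of its proteins is encoded in the nucleus, made in the cytosol and imported. Part of the proteins descend from bacterial ribosomal proteins and part are known only from mitochondria. Neurons are known to depend on oxidative phosphorylation for much of their ATP.

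Bulk RNA was sequenced from DAT-cre mice, a line in which the dopamine transporter gene drives Cre recombinase in dopamine neurons, and all 6 groups carried it. The mice went through oDASS, optogenetic self-stimulation of dopamine neurons, after which the submitters sorted them into perseverers, called addicted, and renouncers, called non-addicted. After oDASS, dissected OFC gave 3 perseverer and 3 renouncer libraries, and dissected mPFC gave 3 perseverer and 3 renouncer libraries. Before oDASS, imprints of OFC tissue, small samples taken in vivo from mice that were studied further, gave 2 perseverer and 3 renouncer libraries. The labels give neither age nor sex, nor which libraries share an animal, so p-values measure the spread between these libraries, which may in part be technical. In dissected tissue, fewer cells of a type and less RNA per cell cannot be told apart.

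Libraries held 12392731 to 20945108 counts in the 12 dissections and 8960549 to 10662666 in the 5 imprints. In the imprints 29.7% to 90.7% of counts were haemoglobin, and only renouncer imprint 1 lay below 85.4%; in the dissections the share was at most 0.0787%. All 78 genes reached at least 10 counts in each dissection, against 48 to 77 of them in an imprint. The genes took 0.404% to 0.623% of the counts that were not haemoglobin in dissections and 0.130% to 0.314% in imprints. Neuron markers (Snap25, Rbfox3 and 5 others) were present in all 6 groups, with a summed level of 8280 to 10500 CPM in the dissections and 1070 to 4950 CPM in the imprints, where CPM are counts scaled to 1000000 counts, here of those other than haemoglobin.

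The 4 promoters below belong to members picked by their values in the comparisons. None of these members was called between perseverers and renouncers. Mrpl3, a large subunit protein with a bacterial homologue, was the only member whose perseverer libraries lay under all renouncer libraries in both regions. Mrpl58, a peptidyl-tRNA hydrolase built into the large subunit that frees stalled ribosomes, had one of the smaller p values in both regions. Mrps22, a mitochondria-specific protein of the small subunit, differed most between dissections and imprints, and Mrpl32, a large subunit protein trimmed by the inner membrane m-AAA protease before it is assembled, was the only member called lower in dissections. Each line gives the 250 bases before the transcription start, 5′ to 3′ on the strand of the gene, from RefSeq on GRCm38.p6. Capitals mark matches to CCGGAAG, the core bound by ETS factors such as GABP, or to the core of NRF1 sites, GCGCA and GCGC with any base between them.
Mrpl3: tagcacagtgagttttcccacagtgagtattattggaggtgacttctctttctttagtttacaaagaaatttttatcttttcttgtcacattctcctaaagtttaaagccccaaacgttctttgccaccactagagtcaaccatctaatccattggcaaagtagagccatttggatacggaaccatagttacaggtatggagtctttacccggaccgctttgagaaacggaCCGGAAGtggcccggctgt
Mrpl58: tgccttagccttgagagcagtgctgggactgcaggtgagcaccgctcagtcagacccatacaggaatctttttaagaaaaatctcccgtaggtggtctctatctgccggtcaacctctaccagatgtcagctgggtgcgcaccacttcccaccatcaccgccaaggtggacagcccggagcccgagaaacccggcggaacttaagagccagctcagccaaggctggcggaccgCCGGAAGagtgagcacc
Mrps22: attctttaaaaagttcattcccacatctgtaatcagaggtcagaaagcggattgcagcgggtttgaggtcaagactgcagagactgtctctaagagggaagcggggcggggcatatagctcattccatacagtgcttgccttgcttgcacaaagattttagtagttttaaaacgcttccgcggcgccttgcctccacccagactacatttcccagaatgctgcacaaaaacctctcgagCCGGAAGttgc
Mrpl32: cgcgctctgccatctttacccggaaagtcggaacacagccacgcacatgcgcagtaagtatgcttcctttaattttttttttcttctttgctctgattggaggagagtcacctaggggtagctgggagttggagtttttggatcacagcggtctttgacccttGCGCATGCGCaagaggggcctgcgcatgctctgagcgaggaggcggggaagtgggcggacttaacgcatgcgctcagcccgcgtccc
They lie at chr9:105053018-105053267 on the plus strand, chr11:115403502-115403751 on the plus strand, chr9:98601680-98601929 on the minus strand and chr13:14613038-14613287 on the minus strand. NRF1 and GABP are known regulators of nuclear genes for mitochondrial proteins. The ETS core began at position -19 from the start in Mrpl3 and at position -17 in Mrpl58. It also stood close to the start in Mrps22, whereas Mrpl32 held an NRF1 core. These starts are those of RefSeq. In GENCODE M21, Mrpl3 and Mrpl32 start further upstream, so that their marked cores lie inside the gene. The 4 promoters do not stand for all members with leading values. Mrpl41, Mrpl46, Mrps6 and Mrpl1, also among those with the smallest p in a comparison, held neither core in their 250 bases.

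A promoter was found in the RefSeq table for 69 members. The ETS core, on either strand, stood in 17 of them (24.6%), against 12.5% of the 11846 promoters of tested genes. The NRF1 core stood in 10 of 69 (14.5%), against 7.72% of promoters of tested genes. AAGATGGC, the core of YY1 sites, stood in 4 (5.8%), against 1.92%. The GC box GGGCGG, which SP and KLF factors bind and which overlapped another core in 1 member promoter, that of Mrpl17, was less common in members, at 33 of 69 (47.8%) against 57.9%. Median GC content was close, at 58.4% in member promoters and 59.6% in those of tested genes. A match is a run of letters and not evidence of binding.

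The member genes lie on 17 chromosomes, with 11 on chromosome 11 and 8 on chromosome 17 in GENCODE M21. They are short and abundant. By the gene length in the count tables their median was 1126.5 bases, against 3095 bases for all genes tested in the dissections, and 91.4% of tested genes were longer than the median member. Mrpl52 was the shortest at 412 bases and Mrpl17 the longest at 6712 bases. In CPM per kilobase of gene length, their median level over the 12 dissections was 41.8, against 6.36 for all tested genes, and 86.2% of tested genes lay below the median member.

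Levels per length covered a wide range. Mrpl33 was highest at 233 ± 87.5 CPM per kilobase (SD, n = 12), followed by Mrpl28 at 197 ± 61.5, Mrps18c at 164 ± 44.4, Mrpl42 at 161 ± 33.6 and Mrpl13 at 136 ± 37.0. These neighbours differ by less than the larger of their SDs. At the low end stood Mrpl23, which sits at the mouth of the exit tunnel, at 3.29 ± 0.817, below Mrpl1 of the L1 stalk at 7.91 ± 1.54, Mrpl19 at 8.0 ± 1.15, Mrps36 at 9.63 ± 2.03 and Mrps18b at 10.9 ± 1.42. Apart from Mrpl23, these neighbours too differ by less than the larger of their SDs. The median was 44.2 in the 51 large subunit genes and 41.8 in the 26 small subunit genes, with wide overlap. Among the 3 paralogs of bacterial S18, Mrps18c and Mrps18a (120 ± 15.6) stood far above Mrps18b.

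**Figure D1:**
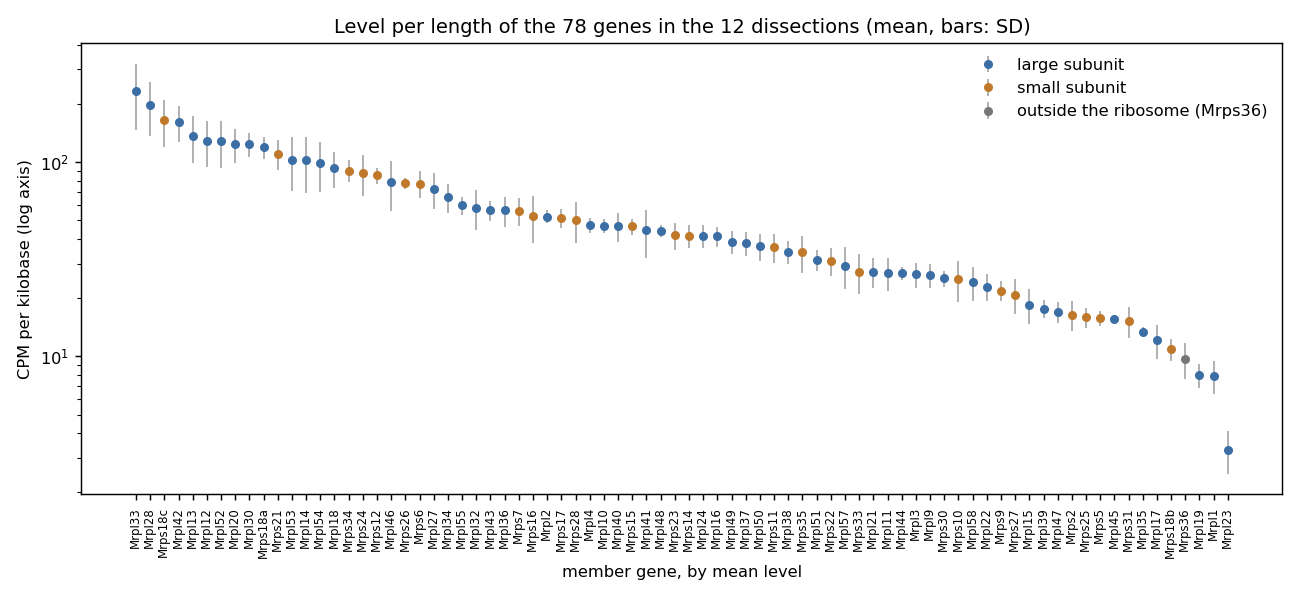
Mean level per length of each of the 78 genes over the 12 dissections, in CPM per kilobase on a log axis, ordered by level, with bars of 1 SD; colours give the subunit. Levels run from 233 for Mrpl33 to 3.29 for Mrpl23, with large and small subunit genes mixed along the order.

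The spread over the 12 dissections was modest. The coefficient of variation had a median of 16.7% in members and 22.7% in all tested genes. It was largest for Mrpl33 (37.5%), Mrpl14 (32.0%), Mrpl28 (31.2%), Mrpl53 (30.9%) and Mrpl46 (29.1%). It was smallest for Mrpl45 (4.75%), a large subunit protein at the inner membrane, which was picked after values were seen. Exons shared with other genes make 10 members uncertain. Mrpl13, Mrpl19, Mrpl24, Mrpl33, Mrpl43, Mrpl53, Mrps6, Mrps18b, Mrps25 and Mrps27 each had 20% or more of their exon bases in another gene. In Mrpl33, Mrpl53 and Mrps6 the shared bases belonged to a gene on the same strand. In the others that gene lay on the opposite strand, and the kit did not keep the strand. For Mrpl41 the table gives 2423 bases, against 776 for the GENCODE principal transcript, so that its level per length depends on the annotation.

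The question of the study was whether perseverers and renouncers differ. In the OFC dissections, the mitochondrial ribosomal genes leaned lower in perseverers, as small differences that did not pass the test gene by gene. Of 78 members, 73 had a fold change below 0, where 49.8% of the 14621 genes tested had one, and 5 above 0, against 50.2% of genes. The median log2 fold change was -0.23, with a median SE of 0.18 per gene, against 0.00 for all genes. edgeR's quasi-likelihood test with Benjamini-Hochberg adjustment called 0 members of 78, and 0% of all genes, and DESeq2 also called 0. At an unadjusted p under 0.05, edgeR gave 2 members, all lower, where 0.923% of genes were lower at that level and 1.66% higher, and DESeq2 gave 5.

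Mrps6, a small subunit protein with a bacterial homologue, had 54.4, 47.2 and 52.6 TMM-scaled CPM in OFC perseverers 1 to 3, against 55.6, 66.5 and 72.9 CPM in OFC renouncers 1 to 3. The groups did not overlap, though perseverer 1 and renouncer 1 were nearly equal. Its log2 fold change was -0.35 ± 0.16 (SE, adjusted p = 0.951). Mrpl15, a large subunit protein, had 68.8, 69.0 and 70.3 CPM in perseverers, against 70.0, 89.2 and 116 CPM in renouncers. Its perseverers were almost identical while its renouncers spread widely, and the log2 fold change was -0.41 ± 0.18 (adjusted p = 0.951). Mrpl41, a mitochondria-specific large subunit protein, had the most negative fold change, -0.50 ± 0.23 (adjusted p = 0.951), with 93.0, 67.7 and 113 CPM in perseverers and 87.9, 135 and 160 CPM in renouncers. In Mrpl41 the groups overlapped, because renouncer 1 stood within the perseverer range.

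Mrpl46, another mitochondria-specific large subunit protein, averaged 74.3 ± 12.4 CPM in perseverers and 103 ± 31.6 CPM in renouncers (SD, n = 3 each; log2 fold change -0.48 ± 0.22). Mrpl58 averaged 63.1 ± 7.04 CPM in perseverers and 78.9 ± 8.86 CPM in renouncers (log2 fold change -0.34 ± 0.15). Mrps7 averaged 90.2 ± 6.65 CPM in perseverers and 113 ± 17.7 CPM in renouncers (log2 fold change -0.34 ± 0.16). All 3 had an adjusted p of 0.951 by edgeR, and their groups overlapped. Only 5 members were above 0, and none by more than its SE: Mrps2 at 0.13 ± 0.20, Mrps18b at 0.10 ± 0.19, Mrpl37 at 0.07 ± 0.16, Mrps15 at 0.07 ± 0.16 and Mrpl23 at 0.09 ± 0.37. Mrps2 turned to -0.02 without renouncer 3, and Mrps18b to -0.01 without perseverer 2.

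In 7 members the perseverer libraries all lay below the renouncer libraries, a pattern shown by 3.08% of all genes in that direction; these were Mrps6, Mrpl49, Mrpl3, Mrpl19, Mrps30, Mrpl2 and Mrps26. No member showed the opposite separation, against 5.95% of all genes. Mrpl3 had 73.3, 68.9 and 67.9 CPM in OFC perseverers, against 80.7, 80.5 and 90.6 CPM in OFC renouncers. Its log2 fold change of -0.27 ± 0.14 did not pass the test (adjusted p = 0.951). Large and small subunit genes were alike: 49 of 51 large subunit genes were below 0 with a median of -0.24, and 23 of 26 small subunit genes with a median of -0.23.

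The mPFC dissections gave a similar picture. Of 78 members, 71 had a fold change below 0, where 49.6% of the 14375 genes tested had one, and 7 above 0, against 50.4% of genes. The median was -0.17 in members and 0.00 in all genes. edgeR called 0 members and 0% of all genes, with 2 members at an unadjusted p under 0.05, both lower (1.36% of genes), and DESeq2 called 0, with 3 unadjusted. Perseverer libraries lay below all renouncer libraries in 12 members, against 5.19% of all genes, and the reverse occurred in 0 members, against 5.70% of all genes. By subunit, 47 of 51 large and 23 of 26 small subunit genes were below 0.

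Mrpl3 had the smallest p. It stood at 61.3, 53.6 and 60.7 CPM in mPFC perseverers, against 81.8, 67.6 and 82.4 CPM in mPFC renouncers. The groups were apart, with renouncer 2 the closest to the perseverers, and the log2 fold change was -0.40 ± 0.17 (adjusted p = 0.943). Mrpl1, which forms the mobile stalk near the tRNA exit site, had 25.2, 26.1 and 30.3 CPM in perseverers, against 38.5, 34.8 and 35.1 CPM in renouncers, again without overlap (log2 fold change -0.41 ± 0.18, adjusted p = 0.943). Mrps11, a small subunit protein, was separated as well, at 33.6, 27.6 and 39.6 CPM in perseverers and 44.6, 43.6 and 43.4 CPM in renouncers (log2 fold change -0.38 ± 0.19). Mrpl4 averaged 58.8 ± 3.60 CPM in perseverers and 71.8 ± 1.18 CPM in renouncers (SD, n = 3 each; log2 fold change -0.29 ± 0.16).

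Mrpl58 had 45.1, 46.4 and 62.5 CPM in mPFC perseverers, against 76.5, 57.5 and 71.5 CPM in mPFC renouncers. Perseverer 3 reached above renouncer 2, so the groups overlapped (log2 fold change -0.42 ± 0.20, adjusted p = 0.943). Mrpl32 had the same fold change, -0.42 ± 0.20, at 39.3 ± 7.82 CPM in perseverers and 52.4 ± 6.38 CPM in renouncers (SD, n = 3 each). The 7 members above 0 stayed within 0.07 of it and within their SEs, Mrps2 (0.07 ± 0.20), Mrpl16 (0.06 ± 0.16) and Mrps15 (0.06 ± 0.18) among them.

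The regions shared direction: 68 members were below 0 in both, as were 33.6% of the 14204 genes tested in both, and 2 members, Mrps2 and Mrps15, were above 0 in both. Whether an OFC and an mPFC library come from the same mouse is not given in the sources used here, so the regions are not independent sets of animals for certain. A test of the difference between the regions' phenotype effects called 0 members by edgeR, 0 at an unadjusted p under 0.05, and 0 by either measure with DESeq2; the background was 0% of genes called, and 0.852% higher and 0.646% lower at the unadjusted level. Its median was -0.02, with the smallest p for Mrpl4, at 0.27 ± 0.18 (adjusted p = 0.99999).

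**Figure D2:**
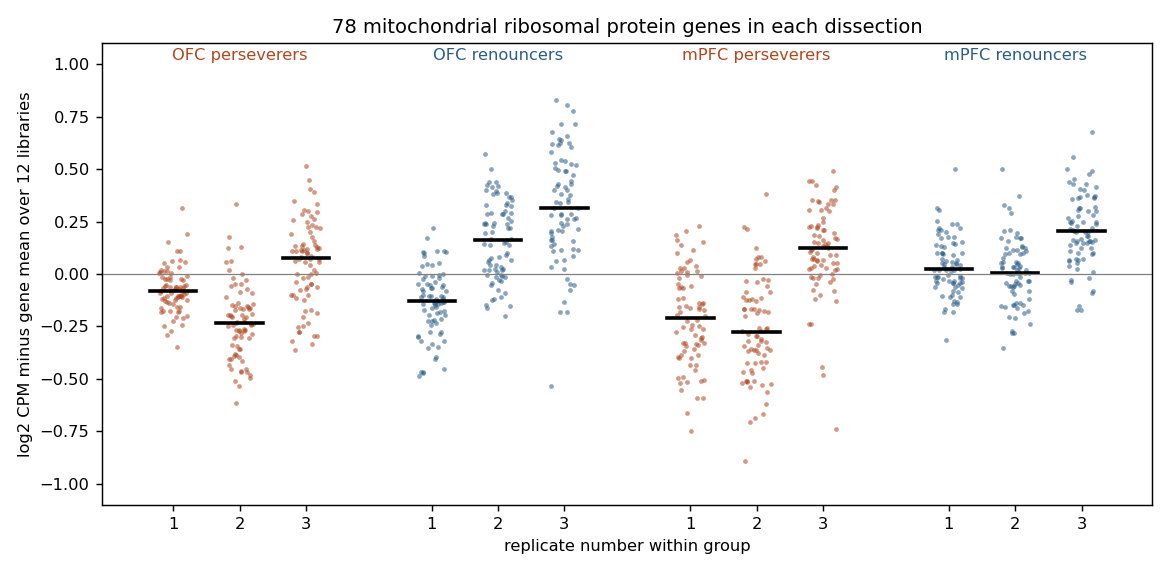
Each point is 1 of the 78 genes in 1 dissection, as log2 CPM minus that gene's mean over the 12 dissections, by region, phenotype and replicate number; black bars are library medians. OFC renouncer 3 was highest with a median of 0.31 and mPFC perseverer 2 lowest at -0.28, and libraries of the same group differ by as much as groups do.

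Library by library, most members lay on the same side of their means, and libraries within a group were not alike. Members above their mean numbered 17, 7 and 48 in OFC perseverers 1 to 3, against 13, 60 and 70 in OFC renouncers 1 to 3. The median deviation of the 78 genes from their mean over the dissections was -0.08, -0.24 and 0.08 log2 units in OFC perseverers 1 to 3, against -0.13, 0.16 and 0.31 in OFC renouncers 1 to 3. In the mPFC it was -0.21, -0.28 and 0.12 in perseverers, against 0.02, 0.01 and 0.20 in renouncers. Renouncers averaged higher in both regions, but OFC renouncer 1 lay below 2 of the 3 OFC perseverers and mPFC perseverer 3 above 2 of the 3 mPFC renouncers. Without OFC renouncer 3 the OFC median fold change shrank to -0.13, and without OFC renouncer 1 it was -0.33. Without mPFC perseverer 2 the mPFC median was -0.11, and without mPFC perseverer 3 it was -0.35.

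Gene length went with these differences. The length trend of a library, Spearman's rho between gene length and the deviation of 8315 well-expressed genes from their means, was 0.178, 0.388 and -0.012 in OFC perseverers 1 to 3, against 0.282, -0.291 and -0.393 in OFC renouncers 1 to 3. In the mPFC it was 0.278, 0.307 and -0.025 in perseverers, against -0.049, -0.118 and -0.370 in renouncers. The 5 libraries with a trend of 0.178 or more, in which long genes counted relatively high, were the 5 with a member median below 0. The other 7 libraries had trends below 0 and member medians above 0.

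**Figure D3:**
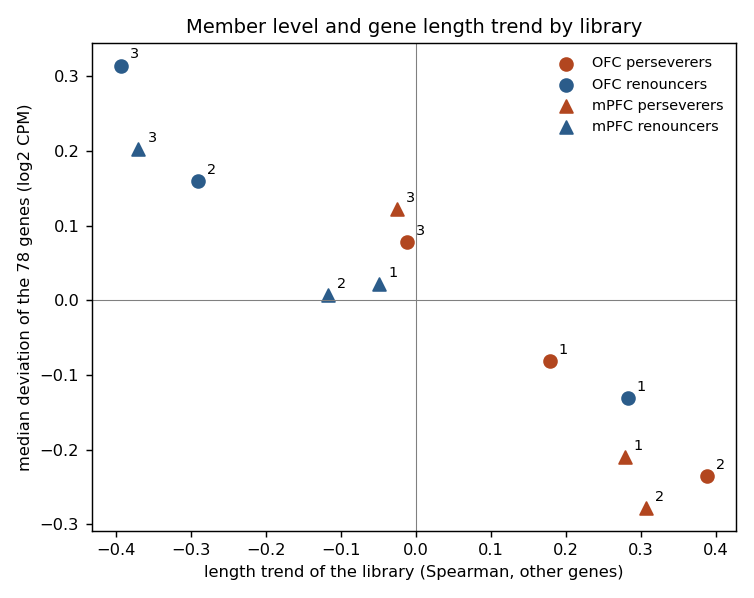
Median deviation of the 78 genes (log2 CPM) against the length trend of the library (Spearman correlation over well-expressed genes), 1 point for each of the 12 dissections, with replicate numbers beside the points. Libraries run from OFC renouncer 3 at -0.393 and 0.31 to OFC perseverer 2 at 0.388 and -0.24.

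Across all genes the fold change between phenotypes also followed length. Genes under 1 kb had a median of -0.21 in the OFC and -0.18 in the mPFC, and genes of 4 kb or more had 0.09 and 0.13. Members did not show that slope to the same degree. Their medians in the OFC were -0.23 for the 28 under 1 kb, -0.22 for the 34 of 1 to under 2 kb, -0.30 for the 10 of 2 to under 4 kb and -0.23 for the 6 of 4 kb or more. In the mPFC they were -0.23, -0.16, -0.18 and -0.21 in the same order of length. Spearman's rho between fold change and length was 0.101 over the 78 members and 0.327 over the other genes in the OFC, and 0.144 and 0.318 in the mPFC; members share libraries and are not independent.

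The contrast with other genes was therefore widest among long members and narrower among short ones. Under 1 kb, 26 of 28 members were below 0 in the OFC and 27 of 28 in the mPFC, against 79.2% and 78.7% of all genes of that length. From 1 to under 2 kb, 32 of 34 and 30 of 34 members were, against 69.4% and 67.7% of genes. In the 2 to under 4 kb class, 9 of 10 members were below 0 in the OFC and 8 of 10 in the mPFC, where all genes of that length stood at 48.6% and 50%. In the class of 4 kb or more, 6 of 6 members were below 0 in both regions, against 34.3% of genes in the OFC and 33.5% in the mPFC. Of these, Mrpl48 was level in the OFC, at 229, 239 and 234 CPM in perseverers, against 236, 234 and 229 CPM in renouncers. Mrpl19 and Mrps25, also in this class, share 39.2% and 58.2% of their exon bases with another gene. Of the 16 members of 2000 bases or more by the count table, 15 also had a GENCODE principal transcript of at least 2000 bases. With each library's length trend taken out, the OFC median was -0.10 with 58 of 78 members below 0, and the mPFC median -0.08 with 49 of 78 below 0. Removing the trend with GENCODE transcript lengths, chosen after seeing the data, gave -0.14 and -0.10.

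**Figure D4:**
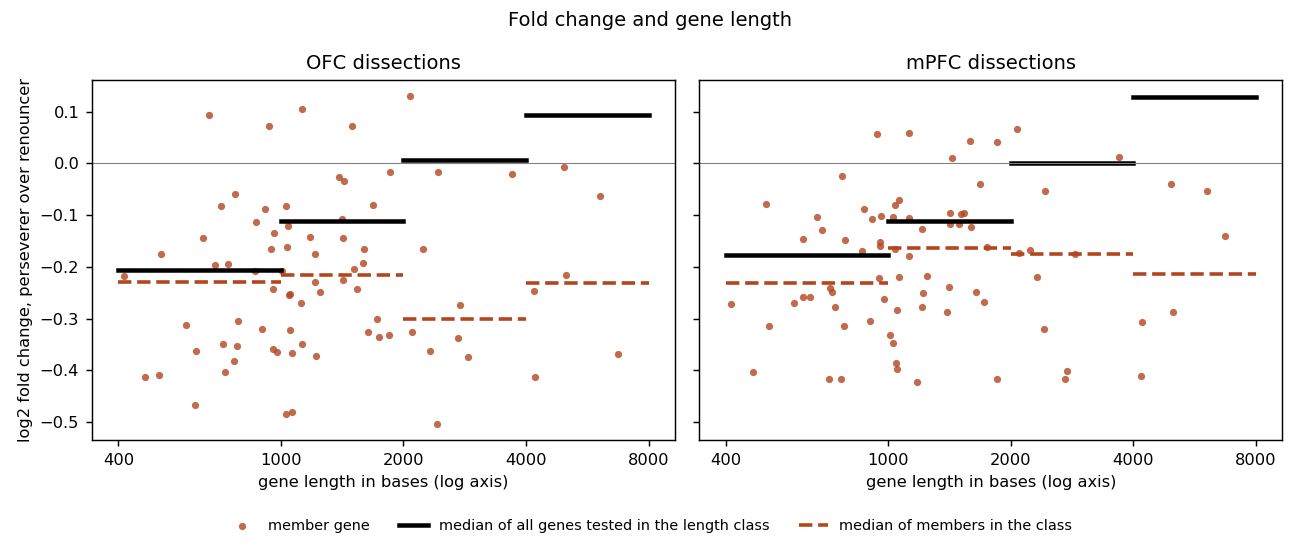
Log2 fold change of perseverers over renouncers against gene length in bases (log axis) for the 78 genes, in OFC and mPFC dissections; black bars are medians of all tested genes per length class and dashed bars medians of members. Black bars climb from -0.21 to 0.09 in the OFC and from -0.18 to 0.13 in the mPFC, while dashed bars stay between -0.30 and -0.16.

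Some cell type markers leaned one way between the phenotypes in the same dissections. All 7 red cell markers were above 0 in both contrasts, with a median log2 fold change of 0.19 in the OFC and 0.14 in the mPFC and summed levels of 522 to 675 CPM in OFC perseverers, 257 to 776 in OFC renouncers, 453 to 703 in mPFC perseverers and 408 to 795 in mPFC renouncers. All 4 endothelial markers were above 0 in the OFC (median 0.46), where they summed to 74.8 to 82.3 CPM in perseverers, against 54.6 to 74 in renouncers, without overlap. In the mPFC 2 of the 4 were above 0, and their sums of 59.8 to 66 in perseverers lay within the 44.1 to 93.4 of renouncers. The endothelial median in the OFC was thus larger in size than that of the members.

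Astrocyte markers were above 0 in 5 of 5 cases in the OFC (median 0.12) and 3 of 5 in the mPFC, and microglia markers in 4 of 5 and 2 of 5. Summed astrocyte markers were 2560 to 2770 CPM in OFC perseverers, against 2280 to 2950 in OFC renouncers, and 1960 to 2410 in mPFC perseverers, against 2230 to 2570 in mPFC renouncers. Summed neuron markers were 8870 to 10500 CPM in OFC perseverers, against 8820 to 10400 in OFC renouncers, and 9140 to 9310 in mPFC perseverers, against 8280 to 9100 in mPFC renouncers, so that only the mPFC groups were apart. All 5 oligodendrocyte markers were above 0 in the OFC contrast and all 5 below 0 in the mPFC contrast, with summed levels of 5440 to 18500 in OFC perseverers, against 8200 to 14400 in OFC renouncers, and of 1860 to 6380 in mPFC perseverers, against 2560 to 7920 in mPFC renouncers. Meningeal fibroblast markers were below 0 in 4 of 4 in the OFC (median -0.95) and above 0 in 4 of 4 in the mPFC (median 0.63). edgeR called 0 of these markers in either contrast, as did DESeq2. The part of cell composition in the members' differences was not tested.

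Other genes of mitochondrial translation leaned the same way in part. Ribosome subunits with names of their own were below 0 in 5 of 5 cases in the OFC and 4 of 5 in the mPFC, with Chchd1, a small subunit protein, at -0.50 ± 0.28 in the OFC and Ptcd3, another, at -0.38 ± 0.17 in the mPFC. Translation factors were below 0 in 8 of 12 and 10 of 12 cases, led in both regions by the initiation factor Mtif2 (-0.27 ± 0.20 in the OFC, -0.48 ± 0.24 in the mPFC). Assembly and ribosomal RNA modification factors were below 0 in 20 of 25 and 15 of 25. Mitochondrial tRNA ligases were split, at 10 of 20 and 12 of 20 below 0. Transcription and mRNA stability genes were below 0 in 10 of 13 and 8 of 13, and regulators of mitochondrial biogenesis in 3 of 10 and 6 of 10. edgeR called 0 genes of these lists in either region, as did DESeq2. Of the 84 genes tested, 1 (Yars2) was lower in the OFC at an unadjusted p under 0.05 and 0 higher, and 3 were lower and 3 higher in the mPFC. None of the RNAs that mitochondrial DNA encodes was analysed here, so the members cannot be set beside the ribosomal RNA they bind.

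Before oDASS, in the OFC imprints, the members showed no lean. Of the 76 tested, 36 were above 0 and 40 below 0, where 48.1% of the 10530 genes tested were above 0 and 51.9% below 0, and the median was -0.02 in members and -0.03 in all genes. edgeR called 0 members and 0% of all genes, with 0 members at an unadjusted p under 0.05 (0.665% of genes higher, 1.05% lower), and DESeq2 gave 0 and 0. Mrpl22 and Mrpl23 missed the count filter, with 9 and 1 counts of Mrpl22 in the perseverer imprints and 87, 5 and 10 in the renouncer imprints. Groups did not overlap in 9 members higher in perseverers (9.01% of all genes) and 4 lower (7.26% of all genes).

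Mrpl46 had the smallest p of the imprints, at 22.6 and 15.7 CPM in perseverer imprints 1 and 2, against 38.7, 69.6 and 47.6 CPM in renouncer imprints 1 to 3, on the scale of the 11 OFC libraries. The groups did not overlap, and the log2 fold change was -1.43 ± 0.70 (adjusted p = 0.9999). These values rest on 22 and 6 counts in the perseverers and 244, 24 and 29 in the renouncers. Mrps2 leaned the other way, at 45.2 and 36.6 CPM in perseverer imprints, against 15.5, 20.3 and 13.1 CPM in renouncer imprints (log2 fold change 1.31 ± 0.73, adjusted p = 0.9999). The median SE of a member was 0.67 here, against 0.18 in the OFC dissections, so differences of the size seen after oDASS were not detectable in the imprints.

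Between regions, the members were level. Set against mPFC dissections, OFC dissections had 41 members above 0 and 37 below 0, where 50.3% of genes were above and 49.7% below, with a median of 0.01 in members and 0.00 in all genes. edgeR called 0 members, where it called 0.892% of 15025 genes higher and 0.865% lower in the OFC. At an unadjusted p under 0.05 it gave 3 higher and 1 lower, where 7.22% and 7.09% of genes stood, and DESeq2 called 1, Mrpl48.

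Mrpl48, a mitochondria-specific protein of the central protuberance of the large subunit, ran from 229 to 239 CPM over the 6 OFC dissections, against 196 to 219 CPM over the 6 mPFC dissections. It was the only member in which the regions did not overlap; 1.01% of genes were separated in that direction and 0.885% in the other. Its log2 fold change of 0.19 ± 0.08 gave an adjusted p of 0.249 in edgeR and 0.0348 in DESeq2. Mrpl34 (0.29 ± 0.12) and Mrpl58 (0.25 ± 0.12) leaned to the OFC, and Mrpl38 (-0.23 ± 0.10) and Mrps2 (-0.26 ± 0.13) to the mPFC, all with overlap and adjusted p of 0.288 or more. Large subunit genes were above 0 in 31 of 51 cases and small subunit genes in 9 of 26; this split was not tested.

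Dissections after oDASS and imprints before it differ in stage and in the way of collection at once, and these cannot be told apart. On the TMM scale, 61 of 78 members were higher in dissections and 17 lower, where 56% of genes were higher and 44% lower. The median log2 fold change was 0.33 in members, against 0.16 over all 15229 genes tested. Relative to that median of all genes, 52 members lay above and 26 below. edgeR called 19 members higher (17.9% of all genes) and 1 lower (15.6% of all genes), so that the share called higher was not far above the background and the share called lower was under it. By subunit, 14 of 51 large and 5 of 26 small subunit genes were called higher. The dissections lay above all imprints in 15 members, against 15.7% of all genes, and below them in 0, against 8.51%.

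Mrpl41 had the smallest p, at 91.9, 68.8 and 107 CPM in OFC perseverer dissections and 89.9, 132 and 163 CPM in OFC renouncer dissections, against 36.0 and 36.6 CPM in perseverer imprints and 41.3, 46.4 and 72.2 CPM in renouncer imprints. Only renouncer imprint 3 reached into the range of the dissections, and the log2 fold change was 1.29 ± 0.25 (adjusted p = 9.06e-04). Mrpl46 rose as well, to 88.0 ± 26.9 CPM in the 6 dissections, against 38.8 ± 21.3 CPM in the 5 imprints (SD; log2 fold change 1.37 ± 0.29, adjusted p = 0.00149). Mrpl3 rose to 76.6 ± 9.89 CPM in dissections, against 34.6 ± 17.3 CPM in imprints, without overlap (log2 fold change 1.11 ± 0.30, adjusted p = 0.00837). Mrps22 had the largest fold change, 1.52 ± 0.43 (adjusted p = 0.0125), at 29.7 to 52.5 CPM in dissections, against 0 to 25.7 CPM in imprints. In perseverer imprint 2 it had 0 counts, which allows up to 3.

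On the log2 scale, Mrpl50, a mitochondria-specific large subunit protein, rose by 1.04 ± 0.29 (adjusted p = 0.0121) without overlap, and Mrpl28 by 0.90 ± 0.26 (adjusted p = 0.0125) with overlap. Mrpl58 rose by 0.94 ± 0.29 and Mrpl1 by 0.91, both separated from the imprints. Mrpl32 was the only member called lower, at 37.5, 32.7 and 41.8 CPM in perseverer dissections and 32.5, 51.8 and 63.5 CPM in renouncer dissections, against 84.2 and 120 CPM in perseverer imprints and 17, 206 and 91.9 CPM in renouncer imprints. Renouncer imprint 1, the imprint with the least haemoglobin, lay below all dissections, so the groups overlapped (log2 fold change -1.19 ± 0.43, adjusted p = 0.0416). Mrpl34 (-0.70 ± 0.28, adjusted p = 0.0602) and Mrps5 (-0.83 ± 0.33, adjusted p = 0.0616) were next. The call of Mrpl32 was lost when any of 9 of the 11 libraries was left out, and its fold change without renouncer imprint 2 was -0.76.

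**Figure D5:**
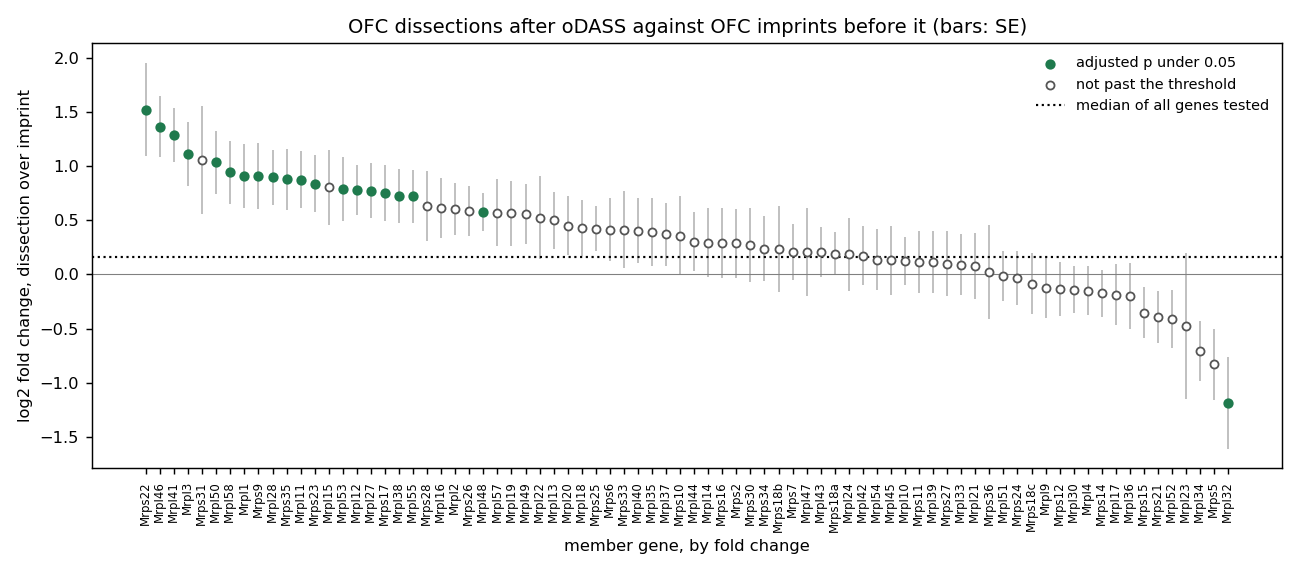
Log2 fold change of OFC dissections after oDASS over OFC imprints before it for the 78 genes, ordered by size, with bars of 1 SE; filled points passed an adjusted p of 0.05, and the dotted line is the median of all genes (0.16). Values run from 1.52 for Mrps22 to -1.19 for Mrpl32.

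The counts of this contrast changed with the scaling. With library totals in place of TMM factors the median of all genes moved to 2.82 and that of the members to 3.2, so the member median stood above that of all genes on each scale. With RLE factors the member median was 0.19, against 0.03 for all genes. Called members numbered 11 higher and 3 lower with RLE, and 77 higher and 0 lower with library totals. Leaving out OFC renouncer dissection 3 left 7 called higher, leaving out renouncer dissection 2 left 10, and leaving out perseverer dissection 1 or perseverer dissection 3 left 12 each; the median was 0.14 without renouncer imprint 1.

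Markers of other cells moved with this contrast as well, by amounts from about that of the members to far more. All 7 neuron markers were above 0 (median 1.15, 6 called), as were 4 of 5 astrocyte markers (median 0.84, 4 called) and 4 of 5 oligodendrocyte markers (median 0.41, 1 called). All 5 microglia markers were called lower on the TMM scale (median -1.15). Among counts other than haemoglobin their sums overlapped. They were 381 to 560 CPM in OFC perseverer and 364 to 526 in OFC renouncer dissections, against 520 to 537 in perseverer and 332 to 776 in renouncer imprints. Of 4 endothelial markers 3 were below 0 (median -0.32, 1 called), and of 4 meningeal fibroblast markers 3 (median -0.68, 1 called). The 7 red cell markers were all called lower, with a median of -14.9. The 3 platelet markers had a median of -9.89 and summed to 3.68 to 5.08 CPM in OFC dissections, against 1130 to 3490 in imprints. Lymphocyte markers summed to 0 to 0.274 CPM in OFC dissections, with Ms4a1 at 0 in all of them, against 77.3 to 853 in imprints. The part of blood cells and of the lower neuron share in the members' differences was not tested. Among other genes of the pathway, called genes went in both directions: Fastkd2 of ribosome assembly rose by 2.21 ± 0.46 on the log2 scale and Ptcd3 by 0.94 ± 0.29, while Gadd45gip1, a large subunit protein, changed by -1.74 ± 0.40 and the leucyl-tRNA synthetase Lars2 by -2.09 ± 0.29, all in edgeR with adjusted p under the threshold.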

How the data were processed

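Per the labels' protocols, libraries came from total RNA by the SMART-Seq v4 ultra low input and Nextera kits, without strand information. The authors deposited raw counts per gene in 3 tables of 25239 genes with a gene length column. FastQC 0.11.8 and mm10 are named in the submitters' processing notes; the sources used here name neither aligner, counter nor annotation. Counts were tested in R 4.3.3 with edgeR 4.0.16: filterByExpr (minimum count 10), TMM, robust quasi-likelihood fits, 2-sided tests, Benjamini-Hochberg adjustment over all genes tested, threshold 0.05. The imprints, OFC dissections and mPFC dissections were fitted apart; regions (12 dissections) and dissection against imprint (11 libraries) had phenotype as a term. SE is the fold change over the square root of F. CPM is TMM-scaled over the 12 dissections, or over the 11 OFC libraries where imprints appear, with dissections averaging the usual scale. Levels per length use the table's length. Positions and exon overlaps come from GENCODE M21 (GRCm38), promoters from RefSeq. Alternatives were DESeq2 1.42.0, RLE factors, library totals, other filters, a threshold of 0.1, removal of length trends or haemoglobin genes, a fit of all 17 libraries, the replicate number as a block, and leaving out each library. The script was tested on simulated data. Members and lists were chosen with earlier results of these data known. Named members are the 6 with the smallest p per direction and comparison, the 5 with the highest and lowest level and the 5 with the largest spread, the length extremes, those missing a filter, the Mrps18 paralogs, and up to 3 genes per pathway list; others, such as members whose groups did not overlap, were named after their values were seen. The upper limit given for a gene without counts covers counting error only, since molecules were not tagged. SEs and SDs include the spread between libraries.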

Additional observations from a re-analysis of the deposited data

How the results depend on the processing

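Scaling, filters, haemoglobin removal, the fit of all libraries and DESeq2 left the 0 calls of the phenotype contrasts and of their difference between regions, and kept the member medians below 0 in the OFC and mPFC dissections. Library totals moved the imprint median to -1.6 (all genes -1.79) and turned Mrps2 to -0.351 and Mrpl9 to -1.26 there. DESeq2 called 1 member higher in the OFC than in the mPFC. Between dissection and imprint, members called higher numbered 11 with RLE factors, 77 with library totals (median 3.2, with Mrpl32 at 2.55 and Mrpl34 at 2.38), 29 with the length trend removed and 9 with the replicate block. Members called lower numbered 3 with RLE factors, the stricter filter, all 17 libraries or a threshold of 0.1, 4 with DESeq2, 2 with GENCODE lengths, and 0 with library totals, no filter, the length trend removed or the replicate block. The cause was not tested. Leaving out 1 library gave 7 to 25 called higher, 0 to 3 called lower and medians of 0.135 to 0.48. The medians ranged from -0.328 to -0.131 in the OFC, -0.352 to -0.11 in the mPFC, -0.145 to 0.148 in the imprints, -0.0309 to 0.0596 between regions and -0.143 to 0.12 for the difference between regions. In the OFC, Mrps2 ranged from -0.0213 to 0.27 and Mrps18b from -0.00916 to 0.189. Same-numbered libraries are not stated to be paired. Their deviations correlated at -0.166 to 0.256 between phenotypes, 0.0169 to 0.144 between stages and 0.02 to 0.398 between OFC and mPFC. Of the 6 OFC and mPFC pairs, 5 were over 0.1 and 5 OFC libraries correlated best with their own number. The pair of renouncers 2 stood at 0.02. Perseverers and renouncers cannot be the same animal, yet 5 of their 8 pairs were over 0.1. In 6 of those 8 the best match was also the own number. Between stages, 1 of 5 pairs was over 0.1 and 5 matched best with their own number. Library numbers of the OFC and mPFC pairs are consecutive in the labels. Pairing by animal was not tested, and these values cannot tell it apart from a batch shared by replicate number. The replicate block gave medians of -0.214 in the OFC, -0.194 in the mPFC, 0.159 in the imprints, 0.00876 between regions and -0.00511 for the difference between regions, with 0 members called in each. Between regions it called 1130 of all genes, against 264 without it, and gave Mrpl48 an adjusted p of 0.0889 and Mrpl34 one of 0.0885 in edgeR. Imprints with 48 to 77 members at 10 counts or more limit what could be detected there.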
